A study of Mus musculus with 6 samples.

Results

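The tripartite motif (TRIM) genes encode ubiquitin ligases and related proteins, and 44 of them were followed in mouse bone marrow-derived macrophages with and without interferon-gamma (IFN-γ). Members were the genes whose symbol is Trim, a number and at most 1 letter, with 10 or more counts in at least 3 of the 6 libraries. The tables listed 36706 genes, of which 68 had such a symbol and 44 passed the count rule. The rule used the symbol and the counts, not the response to IFN-γ, but the family was chosen with earlier results of these data known. Of the 24 TRIM genes below the rule, 9 had 0 counts in every library, and the highest count in any library was 8 (Trim15). The members just inside the rule were Trim29, with 8 to 15 counts, Trim34b, with 9 to 37, and Trim30b, with 5 to 32. Trim30b had 10 or more counts in all 3 IFN-γ libraries and in 1 untreated library, so it entered the family through the group in which it was high.

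Macrophages of wild-type (WT) mice were grown from bone marrow in the growth factor M-CSF (20 ng/mL) and were either left untreated or given IFN-γ, with 3 libraries in each group and a label of 3 h for both. IFN-γ is a cytokine that activates macrophages, and the stated aim of the study was to learn how it induces the itaconate-making enzyme ACOD1. The labels give neither the strain nor the number of mice, and nothing says that the replicates came from separate cultures, so a p-value reflects just the variation among these 6 samples, and that variation may be technical. Libraries held 28133342 to 34233607 counts. Values for 1 gene are given as CPM, counts divided by the scaled library total and put on a common scale, where 3 counts correspond to 0.089 to 0.101 CPM. Levels of different genes are compared as TPM, a like measure that also divides by the length of the gene's exons. The 8 macrophage markers examined were present in every library, with a summed level of 33147 to 38087 TPM. Most of this was Lyz2, at 27393 to 33093 TPM, while Mertk was lowest, at 14.1 to 22.5 TPM. The summed level of 6 neutrophil markers was 359 to 419 TPM in untreated macrophages and 558 to 578 TPM with IFN-γ, mostly from S100a8 and S100a9, while Ly6g was at 0 to 0.137 TPM. The 4 natural killer cell markers summed to 0.253 to 0.595 TPM untreated and 4.65 to 5.18 TPM with IFN-γ, nearly all from Klrk1, with Ncr1 at 0 to 0.045 TPM. The 4 dendritic cell markers summed to 0.574 to 0.693 and 1.70 to 2.04 TPM, mostly from Xcr1, with Flt3 at 0.087 to 0.222 TPM. For 5 B cell markers the sums were 7.01 to 7.99 TPM untreated and 5.50 to 5.66 TPM with IFN-γ, nearly all from Cd79b. The part of such cells in the results was not tested, and in bulk samples fewer cells of a type and less RNA per cell cannot be told apart. Untreated replicate 2 stood apart in its trend on exon length, with a slope of -0.141 (log2 per doubling, relative to its 2 group mates), where the other 5 libraries had slopes of -0.038 to 0.102. By chi-square per degree of freedom between the counts of 2 libraries, replicate 1 of each group lay farthest from its mates. Untreated replicates 1 and 2 gave 81.1, 1 and 3 gave 52.7, and 2 and 3 gave 27.5. The same pairs with IFN-γ gave 13.4, 17.1 and 2.05.

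A typical TRIM protein carries a RING domain, which binds an E2 enzyme and passes ubiquitin to a target. B-box and coiled-coil domains follow and assemble the protein into dimers and larger arrays. Some members, among them Trim14, Trim29 and Trim44, lack the RING domain. The C-terminal part picks the target, and in most TRIM proteins of the immune system it is a SPRY domain. Several TRIM proteins restrict viruses or tune the pathways that sense nucleic acids and activate NF-κB, while others act in chromatin, on the cytoskeleton or in membrane traffic.

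With IFN-γ, the Trim30 genes, most of their neighbours on chromosome 7 and Trim21 rose by about 2 times or more, while Trim65, Trim45, Trim47 and the chromatin co-repressor Trim28 were among the genes that fell, none of them by as much as 2 times. All 44 members were tested, and 17 rose, 12 fell and 15 were not called (quasi-likelihood test of edgeR; p adjusted by Benjamini-Hochberg over 12968 genes, threshold 0.05). Among all genes tested, 19.6% were called higher and 16.8% lower. At 2 times or more, 10 members were higher and none lower, beside 6.17% and 1.94% of all genes. Trim30b, which entered the family through its IFN-γ libraries, is among the 17 and among the 10. Members averaging at least 1 CPM over the 6 libraries, which leaves Trim30b out, held 16 higher and 12 lower. The largest fall, that of Trim65, was to 0.566 of the untreated level. The median log2 fold change was 0.09 over the members and -0.01 over all genes tested. In 18 members every IFN-γ library lay above every untreated one, and in 13 every IFN-γ library lay below, where 25.9% and 24.2% of all genes tested did so. Upper quartile scaling and total counts alone moved the median of all genes to -0.16 and -0.18, and each gave 16 members higher and 14 lower.

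**Figure D1:**
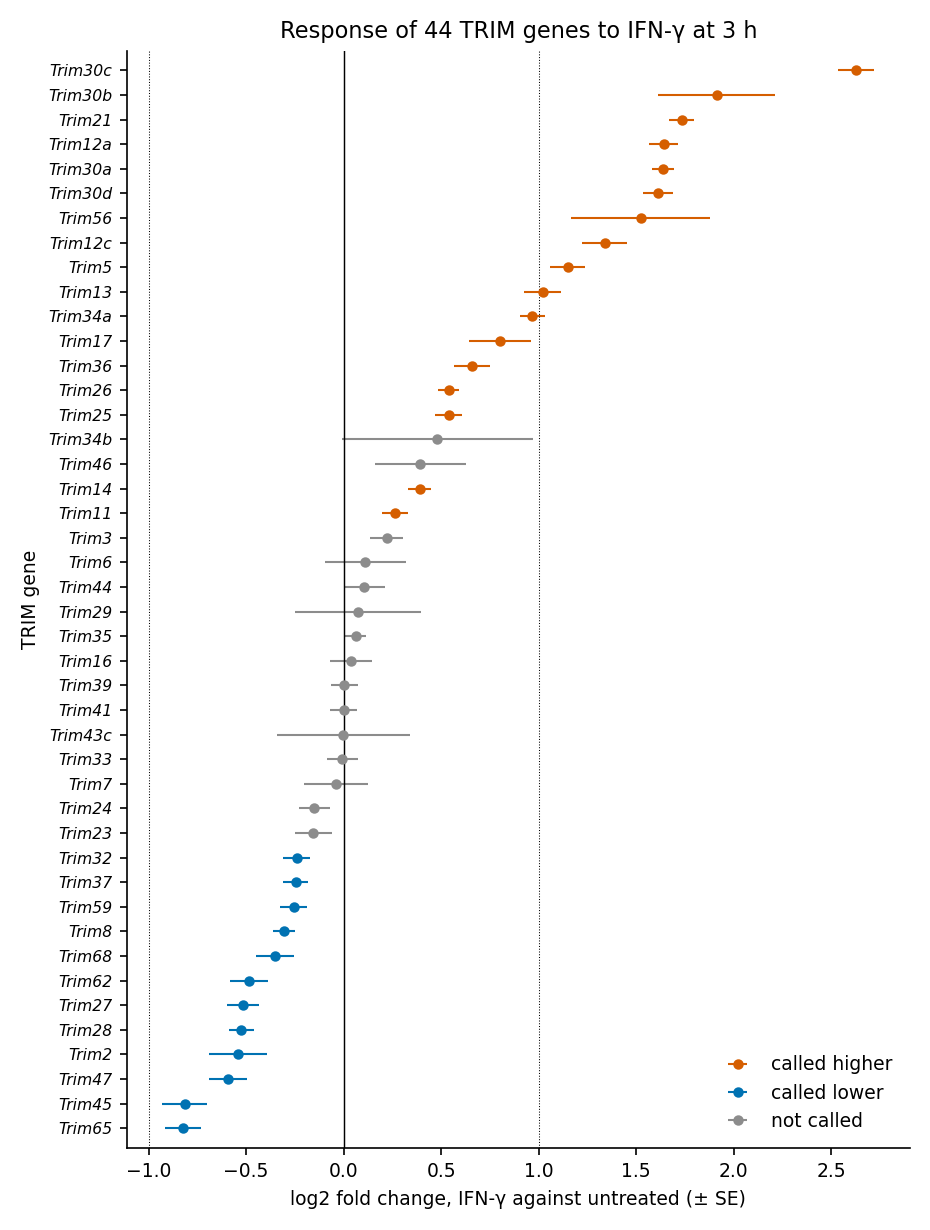
Log2 fold change of IFN-γ against untreated for each of the 44 TRIM genes, with the standard error of the fit as bars and dotted lines at 2 times higher and 2 times lower. Trim30c stands highest at 2.63, 10 genes lie right of the upper dotted line, and the lowest, Trim65, is at -0.82.

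The Trim30 genes, a rodent group whose member Trim30a is known as a brake on NF-κB signalling through TAB2 and TAB3, gave the largest rise of the family and, with IFN-γ, its highest level. Trim30a was at 102, 94.3 and 99.6 CPM in untreated replicates 1, 2 and 3 and at 313, 303 and 305 CPM with IFN-γ. The groups were far apart, with a 3.11-fold rise, or 1.64 ± 0.06 (SE of the fit, here and below) as log2 fold change (edgeR adjusted p = 1.96e-07). Trim30d was at 34.4, 28.7 and 33.4 CPM and at 97.5, 95.2 and 102 CPM, with a log2 fold change of 1.61 ± 0.08 (edgeR adjusted p = 1.58e-06). Trim30c was far less abundant, at 2.69, 2.40 and 2.96 CPM untreated and 16.6, 16.5 and 16.9 CPM with IFN-γ. Its log2 fold change of 2.63 ± 0.09, or 6.19-fold, was the largest of the family (edgeR adjusted p = 2.17e-07). Trim30b rose from 6, 5 and 13 counts to 32, 31 and 29, with a log2 fold change of 1.91 ± 0.30 (edgeR adjusted p = 0.00149). That count is uncertain, since 62% of the exon length of Trim30b is also exon of a predicted gene on the same strand, Gm38525, which had a mean of 60.5 counts. With the counts of the 4 Trim30 genes added up, the log2 fold change was 1.66.

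Trim5, Trim12a and Trim12c are the mouse relatives of primate TRIM5, which binds the capsid of retroviruses. Trim12a was at 15.8, 15.8 and 15.7 CPM in the untreated libraries and at 44.8, 52.9 and 49.8 CPM with IFN-γ, with a log2 fold change of 1.64 ± 0.08 (edgeR adjusted p = 1.2e-06). Trim12c was at 19.4, 26.6 and 21.2 CPM and at 53.0, 59.7 and 57.4 CPM, with a log2 fold change of 1.34 ± 0.11 (edgeR adjusted p = 4.62e-05). Trim5 was at 7.48, 9.27 and 8.30 CPM and at 18.6, 18.2 and 18.8 CPM, with a log2 fold change of 1.15 ± 0.09 (edgeR adjusted p = 2.51e-05). In all 3 genes the lowest IFN-γ library lay well above the highest untreated one. Their transcripts overlap in sequence: of the 50-base stretches in GENCODE transcripts, 36.3% of Trim5, 33% of Trim12c and 10.4% of Trim12a also occur in another gene, so single counts are uncertain. Trim12a and Trim12c added up gave a log2 fold change of 1.47.

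Trim34a, a SPRY-domain member next to Trim5, lay just under 2 times. It was at 20.8, 20.4 and 18.9 CPM untreated and at 39.6, 39.5 and 38.4 CPM with IFN-γ, with a log2 fold change of 0.97 ± 0.06 (edgeR adjusted p = 9.8e-06). Its near copy Trim34b had 18, 11 and 14 counts untreated and 37, 9 and 15 with IFN-γ, and the groups overlapped (log2 fold change 0.48 ± 0.49, edgeR adjusted p = 0.49). Trim34b shared 56.8% of its 50-base stretches with Trim34a, and 24.3% of its exon length lay on the other strand from exons of Trim12c. Trim34a shared 39.8% of its own stretches with Trim34b, so the counts of both genes are uncertain. Trim34a and Trim34b added up gave a log2 fold change of 0.96. Trim6, at the edge of the cluster, is known to make unanchored ubiquitin chains that activate IKKε. It was at 2.09, 1.39 and 1.84 CPM untreated and 2.22, 2.05 and 1.48 CPM with IFN-γ, and the groups overlapped.

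These 10 genes form 1 run of TRIM genes on chromosome 7. In the tables it spans 103868002 to 104157062, or 289 kb, in the order Trim6, Trim34a, Trim5, Trim12a, Trim34b, Trim12c, Trim30b, Trim30c, Trim30a and Trim30d. The tables name no build. The submitters' processing notes name mm10, but 0 of 44 members had the start and end that RefSeq gives on GRCm38.p6, so these coordinates are those of the tables alone. Of the 10 genes, 8 rose and 2 (Trim6 and Trim34b) were not called, with a median log2 fold change of 1.48. Trim30b, whose count is uncertain and which entered the family through its IFN-γ libraries, is among the 8. The 34 members elsewhere held 9 higher and 12 lower, with a median of 0.00. Of all genes tested, 19.6% were called higher and 16.8% lower. The tables place 3 other entries in the run, all predicted genes, and the 2 of them tested were both higher. One of these is Gm38525, which shares exon sequence with Trim30b. In TPM the cluster made up 15.7% to 15.8% of the family's summed level in untreated libraries and 32.5% to 33.7% with IFN-γ. The summed level was 110 ± 9.38 TPM untreated and 291 ± 9.96 TPM with IFN-γ (mean ± SD, n = 3 each). That of the members elsewhere was 590.1 ± 51.6 and 587.5 ± 35.2 TPM.

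**Figure D2:**
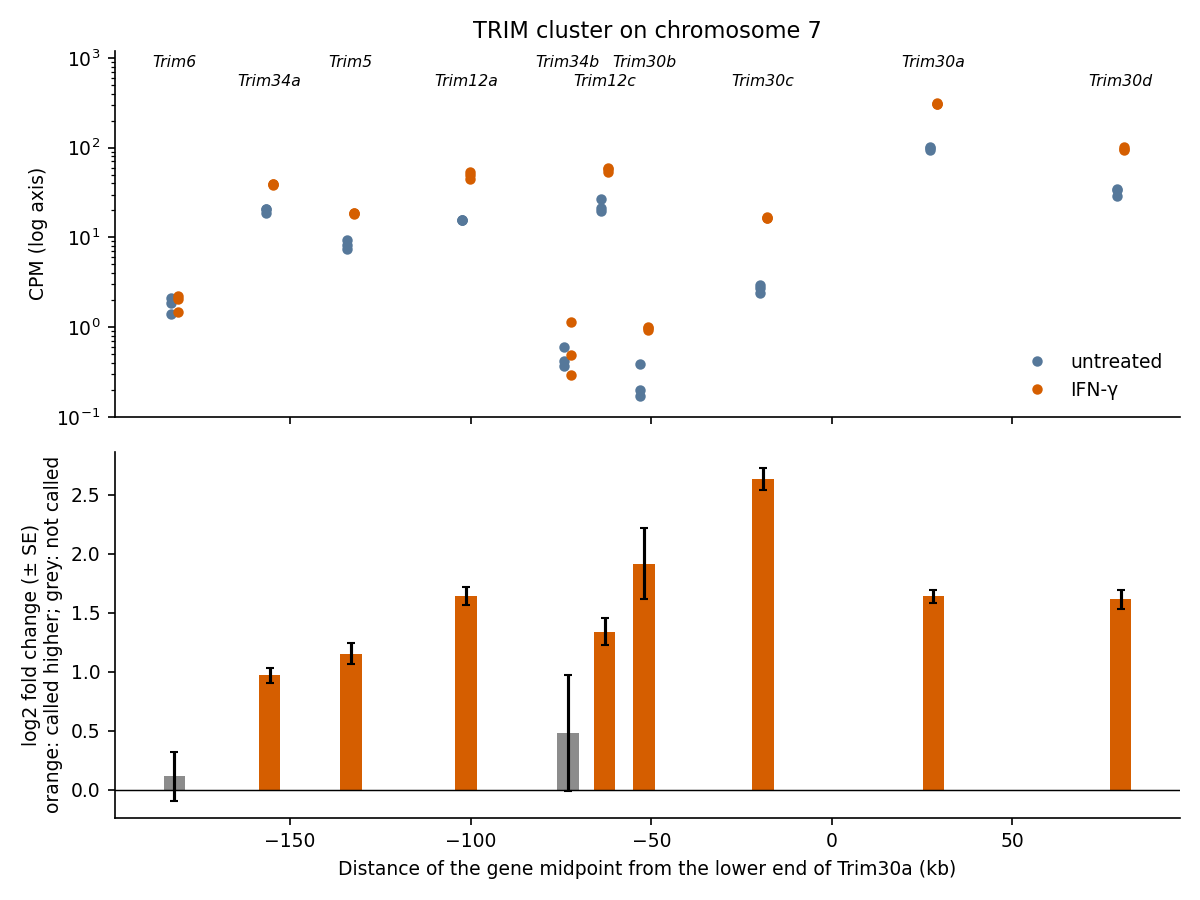
The TRIM cluster on chromosome 7, with each gene at the distance of its midpoint from the lower end of Trim30a (kb). The upper panel gives CPM in each of the 6 libraries on a log axis, and the lower panel the log2 fold change with its standard error: 8 of the 10 genes are called higher, while Trim6 and Trim34b, with overlapping groups, are not.

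Promoter sequence was examined for the letters of 2 elements known from interferon responses, because the cluster genes moved together. They are GAS, searched as TTCNNNGAA, and the interferon-stimulated response element (ISRE), searched as GAAA, any 2 bases and GAAA again on both strands, to which interferon regulatory factors bind. The 2 patterns may overlap, and a match is only a match of letters. RefSeq windows on GRCm38.p6, of 250 bases before and 50 bases from each start site, were held for 32 of the 44 members (44 windows). The letters of the ISRE were in 9 of 15 windows (60%) of the 13 members called higher, in 1 of 14 (7.14%) of those called lower, and in 0 of 15 of those not called. Over all 32851 RefSeq windows the share was 3.44%, and over the windows of genes tested it was 3.37%. The share among windows of all genes called higher was not taken, so the 60% is not read as particular to the TRIM family. The GAS letters were in 1 of the 15 windows of members called higher (6.67%) and in 8.3% of all windows. Most of the 9 matching windows were of cluster genes: Trim34a, Trim5, Trim12a, Trim12c, Trim30d and both windows of Trim30a. Outside the cluster Trim21 and Trim26 held the ISRE letters, while Trim13, Trim25 and Trim56 did not. The members share ancestry, so their windows are not independent of each other.

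The 6 members with the largest rises are shown from 100 bases before to 30 bases after the start site, on the strand of the gene, with matches to either pattern in capitals, so that the place of the match can be compared. For Trim30a, which has 2 windows in the table, the upstream one is printed.
Trim30c (chr7:104400749-104400878, minus strand): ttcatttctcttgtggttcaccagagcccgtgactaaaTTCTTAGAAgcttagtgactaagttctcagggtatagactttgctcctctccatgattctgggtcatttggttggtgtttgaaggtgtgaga
Trim30b (chr7:104358617-104358746, minus strand): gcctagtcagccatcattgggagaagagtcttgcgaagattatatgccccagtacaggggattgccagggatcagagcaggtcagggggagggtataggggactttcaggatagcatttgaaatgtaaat
Trim21 (chr7:102565453-102565582, minus strand): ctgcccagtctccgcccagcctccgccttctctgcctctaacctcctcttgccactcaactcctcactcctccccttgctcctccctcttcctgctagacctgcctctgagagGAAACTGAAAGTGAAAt
Trim12a (chr7:104315466-104315595, minus strand): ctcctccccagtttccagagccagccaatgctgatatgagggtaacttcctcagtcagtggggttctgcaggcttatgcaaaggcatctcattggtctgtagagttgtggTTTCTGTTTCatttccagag
Trim30a (chr7:104465164-104465293, minus strand): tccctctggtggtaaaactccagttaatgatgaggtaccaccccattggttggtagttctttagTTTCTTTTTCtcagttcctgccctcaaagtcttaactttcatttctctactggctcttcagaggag
Trim30d (chr7:104507820-104507949, minus strand): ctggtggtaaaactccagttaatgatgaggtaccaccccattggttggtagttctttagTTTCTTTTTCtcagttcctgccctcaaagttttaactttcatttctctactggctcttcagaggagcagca

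The windows of Trim30a and Trim30d were near copies, with 276 of 295 aligned bases identical and 118 identical bases in a row, and both held the letters TTTCTTTTTC, starting 36 and 41 bases before the start site. Trim30c held a GAS match that starts 62 bases before its start site and no ISRE match, and Trim30b held neither in its window. In Trim21 a pair of overlapping ISRE matches, GAAACTGAAA and GAAAGTGAAA, began 14 and 20 bases into the transcript. The letters TTTCTGTTTC occurred in Trim12a, 11 bases into the transcript, in Trim12c, 29 bases before the start site, and in Trim5, 49 bases before it. For Trim34a the match was TTTCAGTTTC, 11 bases into the transcript. Both windows of Trim13 and the window of Trim56 held neither pattern. For Trim5, Trim12a, the second window of Trim30a and both windows of Trim13, the first 30 transcribed bases were not found in a GENCODE transcript of the gene, so positions relative to those start sites are uncertain.

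Trim21, the cytosolic antibody receptor that sends antibody-coated virus to the proteasome, rose by more than any other member outside the cluster. The tables place it outside the cluster, on chromosome 7 from 102207127 to 102214689. It was at 24.9, 23.2 and 26.5 CPM in untreated macrophages and 82.7, 84.1 and 81.7 CPM with IFN-γ. The spread within each group was small beside the gap, and the log2 fold change was 1.73 ± 0.07, or 3.33-fold (edgeR adjusted p = 3.38e-07). In TPM it moved from the 12th to the 4th most abundant member.

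Trim13, an E3 ligase of the endoplasmic reticulum membrane, was at 8.51, 9.78 and 10.6 CPM untreated and at 18.4, 20.5 and 19.7 CPM with IFN-γ, with a log2 fold change of 1.02 ± 0.10 (edgeR adjusted p = 7.52e-05). Of its 50-base stretches, 14.2% also occur in another gene, so its count is uncertain. Trim56, a ligase known in the response to cytosolic DNA, had the widest spread of the genes past 2 times. It was at 5.85, 1.56 and 4.54 CPM untreated and at 13.9, 11.2 and 9.37 CPM with IFN-γ, with a log2 fold change of 1.52 ± 0.36 (edgeR adjusted p = 0.0111). The groups did not overlap, but the untreated libraries differed by more than 3 times among themselves, with untreated replicate 2, the library of the steepest length trend, lowest. Without IFN-γ replicate 1 its adjusted p was 0.055 (edgeR, log2 fold change 1.35), and without untreated replicate 2 the log2 fold change was 1.15 (edgeR adjusted p = 0.000758).

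**Figure D3:**
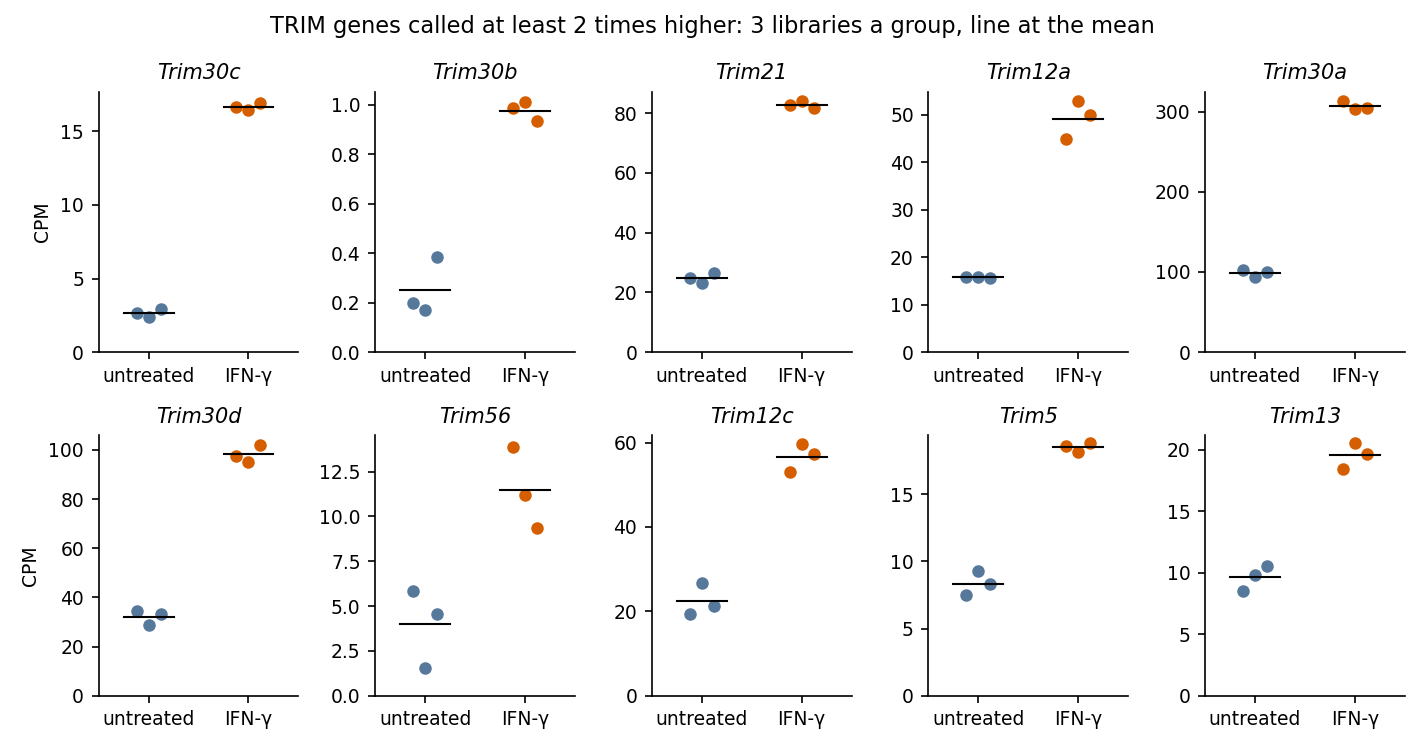
CPM in each library (points; line at the mean of 3) for the 10 TRIM genes called at least 2 times higher with IFN-γ, each panel with its own axis from 0. In every panel the 3 IFN-γ libraries lie above the 3 untreated ones, and Trim56 has the widest spread.

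The other 6 rises outside the cluster were of less than 2 times. Trim25, which ubiquitinates the RNA sensor RIG-I and is itself among the most abundant members, was at 166, 144 and 160.1 CPM untreated and at 240.4, 225 and 218 CPM with IFN-γ. The groups were apart, with a log2 fold change of 0.54 ± 0.07 (edgeR adjusted p = 0.000552). Trim26, a ligase known to act on IRF3, rose by 0.54 ± 0.05 on the log2 scale, from between 37.99 and 39.9 CPM to between 56.02 and 57.7 CPM. Trim14, an adaptor of MAVS signalling that lacks a RING domain, rose by 0.39 ± 0.06. Trim17 and Trim11, neighbours on chromosome 11 that lie 1.13 kb apart in the tables, rose by 0.80 ± 0.16 and 0.26 ± 0.07. Of the exon length of Trim17, 12.7% is shared on the same strand with the histone gene H2aw, which had 0 counts. Of the 50-base stretches of Trim17, 17.7% also occur in another gene. How shared reads were counted is not given, so the count of Trim17 is uncertain. Trim11 lost its call with upper quartile scaling (0.12, edgeR adjusted p = 0.188), with total counts (0.09, 0.283) and without IFN-γ replicate 2 or 3 (edgeR adjusted p = 0.0702 and 0.0566). Trim36, of the group that binds microtubules through a COS box, rose by 0.66 ± 0.09, from 7.54, 6.16 and 6.73 CPM to 10.2, 11.1 and 10.9 CPM.

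The 12 falls lay between log2 fold changes of -0.24 and -0.82. Trim65, known as a ligase for the RNA sensor MDA5, was at 19.6, 15.9 and 17.7 CPM untreated and at 9.64, 10.4 and 10.1 CPM with IFN-γ. Its groups were well apart, with a log2 fold change of -0.82 ± 0.09 (edgeR adjusted p = 0.000246). Trim47, its neighbour 6.95 kb away on chromosome 11, was at 31.97, 39.2 and 31.2 CPM and at 21.9, 22.3 and 23.6 CPM, with a log2 fold change of -0.59 ± 0.10 (edgeR adjusted p = 0.00192). Trim45, which has a filamin domain, was at 3.52, 3.15 and 3.53 CPM and at 1.85, 1.95 and 1.997 CPM, with a log2 fold change of -0.81 ± 0.11 (edgeR adjusted p = 0.000842).

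Trim28, the co-repressor that KRAB zinc finger proteins bring to chromatin, was the second most abundant member in untreated macrophages. It was at 126, 138 and 128 CPM untreated and at 96.0, 90.4 and 86.4 CPM with IFN-γ, with a log2 fold change of -0.53 ± 0.06 (edgeR adjusted p = 0.000365). The other tested bromodomain members, Trim24 and Trim33, had log2 fold changes of -0.15 ± 0.08 and -0.01 ± 0.08 and were not called (edgeR adjusted p = 0.18 and 0.963). With upper quartile scaling and total counts Trim24 was called lower. Trim27, a SPRY-domain ligase of the retromer and WASH pathway, was at 57.9, 70.2 and 58.7 CPM and at 42.6, 44.6 and 43.3 CPM, with a log2 fold change of -0.52 ± 0.08 (edgeR adjusted p = 0.00172). Trim2, an NHL-repeat ligase, was at 3.52, 3.42 and 4.24 CPM and at 2.77, 2.12 and 2.80 CPM, with a log2 fold change of -0.54 ± 0.15 (edgeR adjusted p = 0.0225), and the call was lost when untreated replicate 3 or IFN-γ replicate 2 was left out.

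The remaining falls were those of Trim62 (-0.48 ± 0.10), Trim68 (-0.35 ± 0.10), Trim8 (-0.30 ± 0.06), Trim59 (-0.26 ± 0.07), Trim37 (-0.25 ± 0.07) and Trim32 (-0.24 ± 0.07), as log2 fold changes with their SE. Trim8 is known as a regulator of cytokine and NF-κB signalling, Trim37 as a centrosome ligase with a MATH domain, and Trim32 as an NHL-repeat ligase mutated in a muscular dystrophy. The groups did not overlap in any of the 6 genes. Of all genes tested, 24.2% had every IFN-γ library below every untreated one. For Trim68 and Trim59 the call was lost when untreated replicate 1, IFN-γ replicate 1 or IFN-γ replicate 3 was left out. Trim37 lost its call without any single library other than untreated replicate 2. Trim32 did so as well, and also with no filter on low counts and with DESeq2 (adjusted p = 0.0694 and 0.0681).

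The 15 members without a call ranged in log2 fold change from -0.16 (Trim23) to 0.48 (Trim34b). Trim35, a SPRY-domain member, was the most abundant TRIM gene in untreated macrophages. It was at 165, 157 and 161 CPM untreated and 174, 168 and 163 CPM with IFN-γ, with overlapping groups and a log2 fold change of 0.06 ± 0.05 (edgeR adjusted p = 0.417). Trim44, Trim41 and Trim33 ranged over all libraries from 52.4 to 70.9, 45.4 to 51.8 and 29.8 to 35.8 CPM, with overlapping groups. Trim7, a glycogenin-binding ligase and neighbour of Trim41 on chromosome 11, was at 1.76 to 2.36 CPM over all 6 libraries, and Trim39 at 12.05 to 12.8 CPM. In Trim3, an NHL-repeat member, every IFN-γ library lay above the untreated ones, but the log2 fold change of 0.22 ± 0.08 was not called (edgeR adjusted p = 0.0739). It was called without untreated replicate 1 and with the trend on exon length removed. Trim23, which carries an ARF domain, was called lower without untreated replicate 2 and with either of the other scalings named above. Trim16, Trim29, Trim43c and Trim46 complete the uncalled members with Trim6 and Trim34b, and all but Trim16 of these 6 were under 1 TPM in both groups. Trim43c shared 42.1% of its 50-base stretches with another gene, so its counts are uncertain.

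By domain, the 27 members with a C-terminal SPRY domain held 14 higher, 5 lower and 8 uncalled, with a median log2 fold change of 0.39. Over all genes tested 19.6% were higher and 16.8% lower, so the share of falls among SPRY-domain members was near the background. Outside the chromosome 7 cluster the 17 SPRY-domain members held 6 higher and 5 lower, with a median of 0.00. The 3 NHL-repeat members (Trim2, Trim3 and Trim32) held 2 lower and none higher, and the 3 bromodomain members 1 lower and none higher. The 2 members with a COS box (Trim36 and Trim46) held 1 higher. Trim13 and Trim59, which have a membrane-spanning segment, went opposite ways, as did Trim8 and Trim56, placed here as having no further C-terminal domain. The other 5 (Trim23, Trim29, Trim37, Trim44 and Trim45) held 2 lower. These counts describe the family only, since members of 1 group share ancestry and the groups were chosen with earlier results of these data known.

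In TPM the order of the most abundant members changed at the top. In untreated macrophages it was Trim35 (95.3 ± 9.07 TPM, mean ± SD, n = 3), Trim28 (87.7 ± 2.59), Trim25 (61.2 ± 8.51), Trim30a (53.0 ± 5.87) and Trim8 (37.3 ± 3.43). Trim35 and Trim28 lay within their spread. The means of Trim25 and Trim30a did so too, but Trim25 was above Trim30a in each untreated library. With IFN-γ the order was Trim30a (151 ± 7.98 TPM), Trim35 (91.5 ± 6.30), Trim25 (81.6 ± 6.99), Trim21 (59.5 ± 2.24), Trim28 (56.2 ± 4.92) and Trim30d (50.5 ± 2.05). Trim30a then stood clear of the rest, while the means of Trim21 and Trim28 lay within their spread. Trim21 was above Trim28 in each IFN-γ library, but barely so in replicate 1 (61.69 beside 61.66 TPM). At least 10 TPM was reached by 19 members untreated and 18 with IFN-γ, and 8 members were under 1 TPM in both groups. Trim30a alone made up 7.34% to 7.71% of the family's summed TPM in untreated libraries and 17.1% to 17.4% with IFN-γ. The family as a whole took 0.131% to 0.142% of all counts in untreated libraries and 0.165% to 0.173% with IFN-γ.

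**Figure D4:**
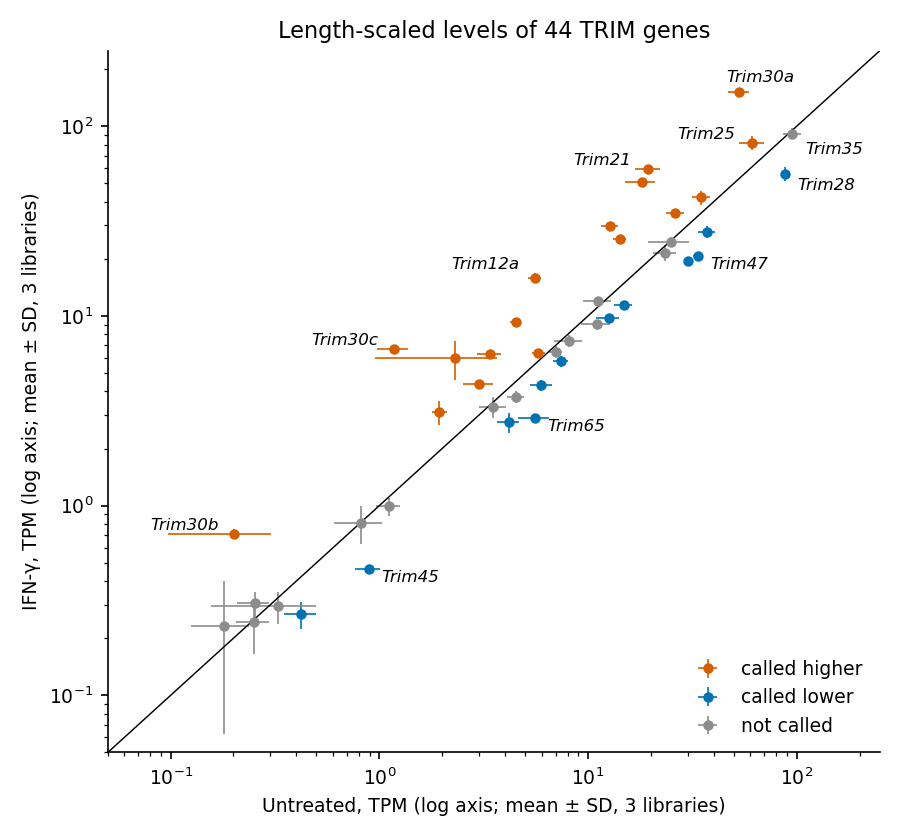
Length-scaled level of each of the 44 TRIM genes in untreated macrophages (horizontal) against IFN-γ (vertical), in TPM on log axes, as mean and SD of 3 libraries, with the line of equal level. Trim30a, at 53.0 TPM untreated, lies highest with IFN-γ at 151 TPM, and Trim28 and Trim47 lie below the line.

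Genes listed as partners of TRIM proteins were also examined. All 43 were tested, and 22 were higher and 4 lower (edgeR, adjusted p under 0.05), with a median log2 fold change of 0.23. These are to be read beside the 19.6% higher and 16.8% lower, and the median of -0.01, of all genes tested. The list was chosen with earlier results of these data known, so its counts are not read as a result about TRIM partners. With total counts alone 16 were higher and 10 lower, and with upper quartile scaling 16 and 9. Without untreated replicate 2, 7 were lower. Among 15 genes of ubiquitin or ISG15 transfer 9 rose and none fell. The ubiquitin-like modifier gene Isg15 rose from 51.0, 70.0 and 55.2 CPM to 262, 276 and 275 CPM, by 2.21 ± 0.11 on the log2 scale. Uba7, the ISG15-activating enzyme gene, rose by 1.46 ± 0.06, and Ube2l6, the matching E2, by 0.66 ± 0.08. The E2 genes most used by RING ligases moved less: Ube2d3 rose by 0.49 ± 0.06, and Ube2n was uncalled at 0.08 ± 0.06.

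Of 17 genes of innate signalling proteins that TRIM proteins bind or modify, 12 rose and 1 fell, where 19.6% of all genes tested rose and 16.8% fell. These genes too were chosen with earlier results of these data known, so nothing is read from the count. Sting1, the adaptor of DNA sensing, rose from 24.6, 26.4 and 24.5 CPM to 127, 117 and 116 CPM, by 2.26 ± 0.07. Ifih1, the gene of MDA5, rose by 2.08 ± 0.06, and Ddx58, the gene of RIG-I, by 1.32 ± 0.10. Mavs, the adaptor on which both RNA sensors act, was at 37.7, 34.4 and 39.97 CPM untreated and at 28.03, 26.99 and 27.6 CPM with IFN-γ, with a log2 fold change of -0.44 ± 0.07 (edgeR adjusted p = 0.00179). So the sensor gene Ifih1 rose and Trim65, whose product acts on MDA5, fell, whereas Ddx58 and Trim25 both rose.

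Of 8 genes of TRIM28 partners, 3 fell and none rose, beside 16.8% and 19.6% of all genes tested, and with so few genes nothing is read from the count. Setdb1, the histone H3 lysine methyltransferase that TRIM28 recruits, was at 57.3, 44.02 and 53.5 CPM untreated and at 38.4, 37.0 and 34.7 CPM with IFN-γ, with a log2 fold change of -0.49 ± 0.10 (edgeR adjusted p = 0.00576). The HP1 genes Cbx5 and Cbx3 had -0.46 ± 0.10 and -0.34 ± 0.08. Cbx1, Chd3, Chd4, Atf7ip and Smarcad1 were not called. Of 3 genes listed with TRIM21, Fcgr1 rose by 1.25 ± 0.06. Fcgr1 encodes another antibody receptor, and whether its product works with TRIM21 was not tested. Vcp, the unfoldase gene that acts after TRIM21, and Usp4 were not called (edgeR adjusted p = 0.476 and 0.0574).

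**Figure D5:**
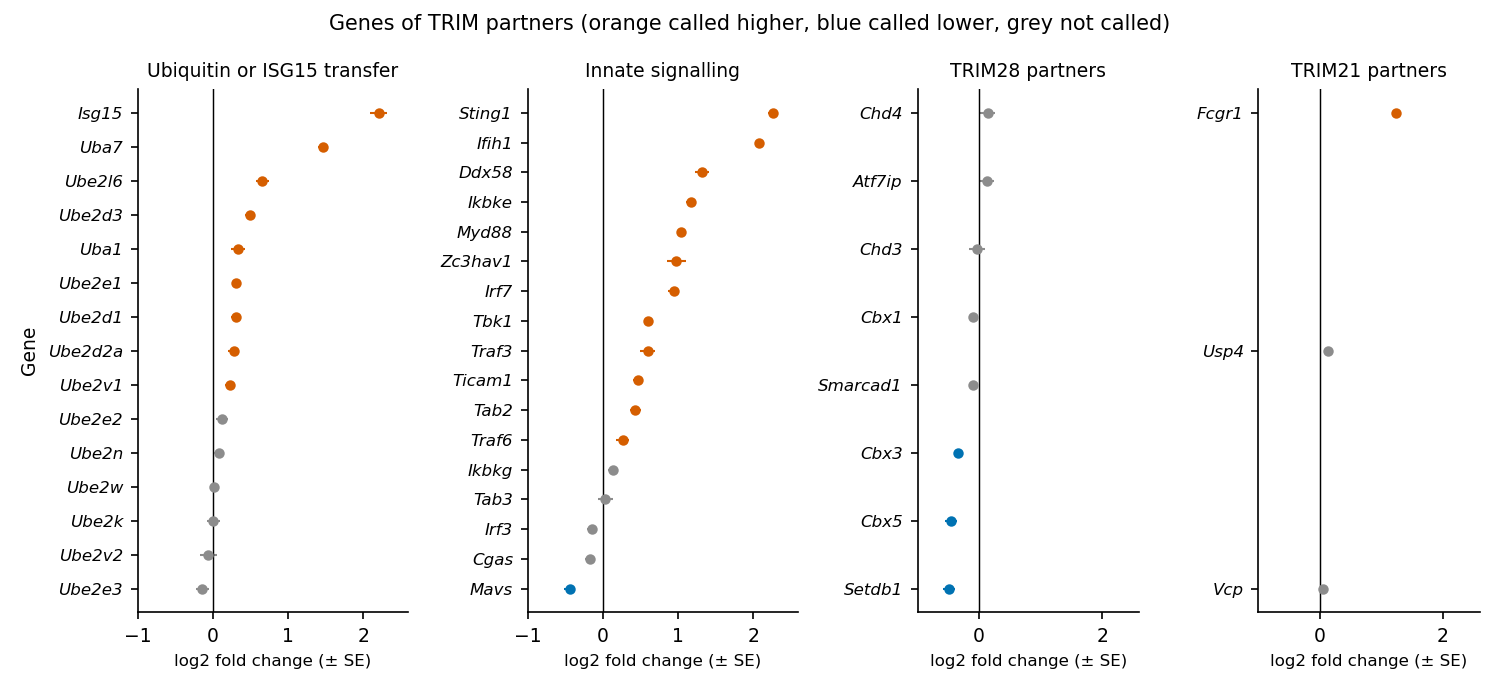
Log2 fold change with standard error for 43 genes listed as partners of TRIM proteins, in 4 groups with shared horizontal limits, where colour gives the call. Isg15 and Sting1 lie farthest right, and the falls are Mavs and the TRIM28 partners Cbx3, Cbx5 and Setdb1.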

How the data were processed

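Per the labels' protocols, Trizol RNA was made into stranded mRNA libraries (KAPA). HISAT2 and mm10 are named in the submitters' processing notes, while how reads were counted, and whether by strand, is not given in the sources used here. For every gene the tables carry 3 deposited measures: the authors' counts are whole numbers and were tested, the TPM deposited by the authors served to compare levels between genes, and the FPKM deposited by the authors was not used.

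Groups came from the sample titles. In edgeR 4.0.16 (R 4.3.3), genes were filtered with filterByExpr (minimum count 10, minimum total 15), scaled by TMM, and tested two-sided by glmQLFit and glmQLFTest over 12968 genes at a threshold of 0.05. Each SE was taken as log2 fold change over the root of the F statistic. Total counts of 28133342 to 34233607 per library go with a common biological coefficient of variation of 0.089, and the floor of 3 counts allows for counting error only. The fit was tested on simulated data. Alternatives were other scalings, filters, DESeq2 1.42.0, limma-voom (limma 3.58.1), the replicate number as a block, each library left out, a threshold of 0.01 and neighbouring copies added up. A fit with the exon-length trends taken out (lowess, span 0.5) was chosen after seeing the data. Members, gene lists and domain groups were chosen with earlier results of these data known. In full are given members called at least 2 times higher, the 5 most abundant, the 5 largest falls and the chromosome 7 cluster, and of partner genes up to 3 rises and 3 falls per group. Others named were chosen after their values were seen.

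Sequence stretches of 50 bases were compared with GENCODE M21 transcripts, in which all 44 members were found, and 8 shared at least 10% with another gene. Exons of 6 members overlapped another entry by at least 10%. Of 44 promoter windows, 36 began their transcribed part as a GENCODE transcript does, and those of Trim5, Trim7, Trim12a, Trim13 (both), Trim30a (the second), Trim37 and Trim41 did not.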

Additional observations from a re-analysis of the deposited data

How the results depend on the processing

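The 17 rises and 12 falls of the TRIM genes were recomputed under each alternative. Leaving out 1 library gave 16 to 18 members higher and 8 to 13 lower, and 18 to 23 partner genes higher and 4 to 7 lower, with 7 lower without untreated replicate 2. At a threshold of 0.01, 7 members were lower. Upper quartile scaling and total counts alone gave 9 and 10 partner genes lower in place of 4; the cause was not tested. Of the members, 15 of 17 higher and 7 of 12 lower kept their call under every setting in which they were tested, and no called member changed direction. Of these, Trim17, Trim30b and Trim45 were removed by the filter of at least 5 CPM in 3 libraries, so that setting says nothing of them. Of 15 uncalled members, 11 took the other sign under at least 1 setting, without a call. With the replicate block, 17 members were higher and 12 lower; same-numbered libraries deviated with correlations of 0.28, 0.13 and -0.06 for numbers 1, 2 and 3, so the numbers were not taken as pairs. Not every library correlated best with its own number. The 4 members under 1 CPM in untreated macrophages (Trim29, Trim30b, Trim34b and Trim46) had SE of 0.23 to 0.49, so the depth limits what can be said of them.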

Other observations

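TRIM proteins that go by other names were outside the rule. Pml, the gene of the scaffold of nuclear bodies (TRIM19), was at 28.1, 23.3 and 28.4 CPM untreated and at 87.5, 72.1 and 71.5 CPM with IFN-γ, with a log2 fold change of 1.53 ± 0.11 (edgeR adjusted p = 1.41e-05). Mefv, the gene of the inflammasome sensor pyrin (TRIM20), was at 30.8, 24.6 and 29.7 CPM and at 69.2, 70.0 and 67.01 CPM, with a log2 fold change of 1.28 ± 0.09 (edgeR adjusted p = 1.2e-05). Mid1, a microtubule-binding ligase gene (TRIM18), was at 1.30, 0.778 and 1.63 CPM and at 2.40, 2.21 and 2.06 CPM, with a log2 fold change of 0.84 ± 0.24 (edgeR adjusted p = 0.025). The groups did not overlap in any of the 3 genes. Of all genes tested, 25.9% had every IFN-γ library above every untreated one. Mid2, with 3 to 18 counts, was not tested.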
